A study of Mus musculus with 6 samples.

Results

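The skeletal muscle isoforms examined here are 9 genes that encode the actin, troponin, myosin light chain, calcium pump and creatine kinase forms typical of skeletal muscle: Myl1, Acta1, Tnni1, Tnni2, Tnnt3, Tnnc2, Mylpf, Atp2a1 and Ckm. They were measured in the left ventricle by 12 probe sets, out of 45101 on the array, being every probe set whose platform annotation named exactly 1 of these genes. Tnni2 had 3 probe sets, Ckm had 2 and each other gene had 1. The genes were selected on their role, with their measured differences between genotypes on these same 6 arrays already known, so those differences are given below as a description, with no test.

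The mice were male, 12 to 16 weeks old and of strain C57BL/6, and the 3 samples labelled akt2-/- came from a line in which the akt2 gene carries a targeted disruption, backcrossed more than 7 times onto C57BL/6, while the other 3 samples were wild type. The labels name no tissue-restricted promoter or Cre, so the disruption is not described as limited to the heart. Nor do they tell whether each sample of a genotype was a different animal, so errors and p-values describe the spread between these samples, which may be technical.

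Striated muscle contracts when calcium binds troponin C, which lets troponin I and troponin T move tropomyosin off actin so that myosin can bind. Each of these parts is made in several isoforms by separate genes, and heart and skeletal muscle use different ones: the ventricle relies on Actc1, Tnni3, Tnnt2, Tnnc1, Myl2, Myl3 and Atp2a2, and fast skeletal fibres on Acta1, Tnni2, Tnnt3, Tnnc2, Mylpf, Myl1 and Atp2a1. Some skeletal forms are also made by heart muscle: Acta1 and Tnni1 are expressed in the developing heart, and Ckm, muscle creatine kinase, is the main cytosolic creatine kinase of both tissues.

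The arrays with replicate number 1 stood apart from the other 4 in both genotypes. Their median signals were 134.4 (knockout) and 167.3 (wild type), against 88.6 to 91.4 in the others, and the median signal of their 18S ribosomal controls was 57280 and 82330, against 152.7 to 446.7. Values are therefore given by array, and for the replicate 1 pair apart from the rest. The disrupted gene followed the labels: the brightest Akt2 probe set had 478, 394.5 and 255.4 in the knockout arrays and 2363, 2561 and 2505 in the wild type arrays. Myl2, the ventricular regulatory light chain and a defining gene of the labelled tissue, had between 56149 and 206483 on every array. In tissue samples such as these, fewer cells of a type and less RNA per cell cannot be told apart.

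The upstream sequences of the members the results turn on are shown first, 250 bases ending at the annotated transcript start, 5′ to 3′ on the gene's strand, from RefSeq with build GRCm38.p6. They are those of Myl1, Acta1 and Ckm, which had the brightest probe sets, and of Mylpf, which differed between the replicate 1 arrays and the others in the direction opposite to Myl1. The windows of Myl1 and Mylpf lie inside the annotated genes (chr1:66924295-66947932 and chr7:127208848-127214288). They therefore precede an internal transcript start and not the first base of the gene. Capitals mark the motifs that were searched on both strands, namely the E-box (CANNTG), which myogenic factors bind, the MCAT element (spelled CATTCC), the TATA box (spelled TATAAA), the CArG box of serum response factor and the MEF2 site.
Myl1 (chr1:66945057-66945306, minus strand): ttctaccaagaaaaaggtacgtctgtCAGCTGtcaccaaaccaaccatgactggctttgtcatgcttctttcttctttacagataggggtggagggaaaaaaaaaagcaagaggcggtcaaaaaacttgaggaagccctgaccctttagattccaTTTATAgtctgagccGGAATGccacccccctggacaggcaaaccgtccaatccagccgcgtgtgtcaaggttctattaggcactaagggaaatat
Acta1 (chr8:123894776-123895025, minus strand): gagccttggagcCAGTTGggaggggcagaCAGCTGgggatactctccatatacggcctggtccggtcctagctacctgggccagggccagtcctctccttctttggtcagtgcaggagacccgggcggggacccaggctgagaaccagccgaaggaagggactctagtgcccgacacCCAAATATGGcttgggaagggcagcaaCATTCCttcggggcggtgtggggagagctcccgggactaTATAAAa
Ckm (chr7:19410844-19411093, plus strand): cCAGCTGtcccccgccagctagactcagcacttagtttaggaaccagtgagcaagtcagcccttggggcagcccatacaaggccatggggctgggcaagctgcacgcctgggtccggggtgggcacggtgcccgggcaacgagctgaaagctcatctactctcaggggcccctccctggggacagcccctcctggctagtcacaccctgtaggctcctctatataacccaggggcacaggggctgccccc
Mylpf (chr7:127211358-127211607, plus strand): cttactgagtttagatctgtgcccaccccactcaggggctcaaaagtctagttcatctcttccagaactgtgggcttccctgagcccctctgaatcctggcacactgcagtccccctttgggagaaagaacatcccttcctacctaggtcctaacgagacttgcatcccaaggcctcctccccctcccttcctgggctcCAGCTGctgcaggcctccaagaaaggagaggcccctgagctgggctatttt

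Promoter windows were found for 7 of the 9 members, 8 windows in all because Tnni1 had 2 overlapping ones. Those of Tnni1 also lie inside the annotated gene (chr1:135783033-135810989). Tnni2 and Tnnt3 were not matched. All 8 windows held an E-box, as did 66.2% of the 32851 windows of the same length in the table. The CArG box was in 1 member window, that of Acta1, and in 1.47% of all windows. MCAT was in 2 member windows, Myl1 (on the opposite strand, as GGAATG) and Acta1, against 12.6% of all windows. The letters TATAAA were in the same 2, against 12.4% of all windows. They lay 95 to 90 bases before the start in Myl1, on the opposite strand, and 7 to 2 bases before it in Acta1. Other spellings of a TATA box, such as the tatataa in the Ckm window, were not searched. No member window matched the MEF2 site, which 2.92% of all windows held. A match is a description of the letters and not of binding.

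The members fell into bright and dim probe sets. A probe set was tested where its mean log2 value over the 6 arrays was at or above the median of all probe sets, 6.868, which is a signal of about 95.1. Of the 12 probe sets 6 passed, standing for Myl1, Acta1, Tnni2, Mylpf and Ckm (2 probe sets), and 6 did not, among them the only ones of Tnni1, Tnnt3, Tnnc2 and Atp2a1. The nearest to the limit were the brightest Tnni2 probe set, just above it at 6.904, and Atp2a1, just below it at 6.859.

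**Figure D1:**
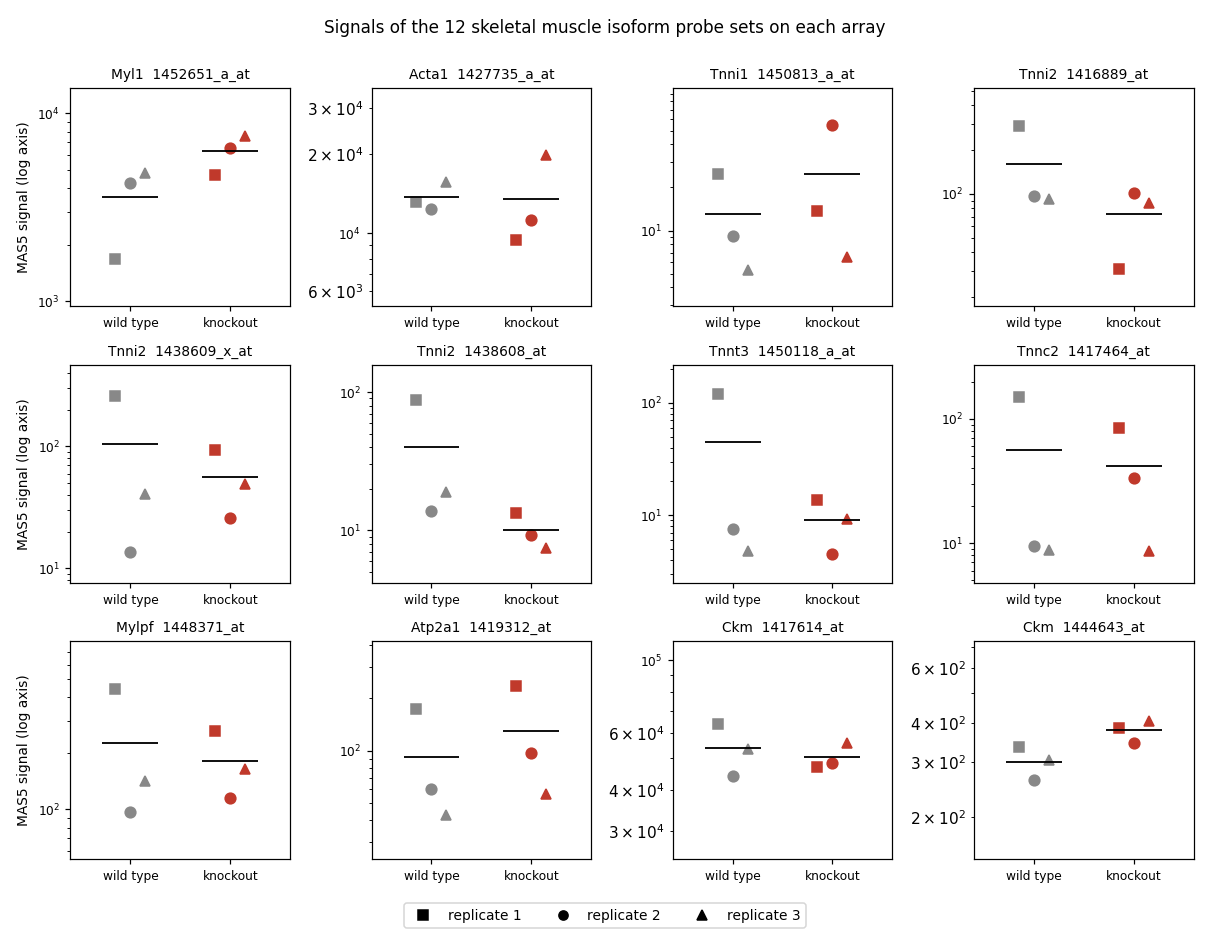
Signal on each array, on a log axis, for the 12 probe sets of the skeletal muscle isoforms, with wild type in grey and knockout in red. Squares, circles and triangles are replicates 1, 2 and 3, and horizontal lines are means of 3 arrays. The wild type replicate 1 array is the highest of the 6 for Tnnt3, Tnnc2, Mylpf, all 3 Tnni2 probe sets and the brighter Ckm probe set. It is the lowest for Myl1.

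Between the genotypes, Myl1 was the member with the largest difference by the brightest probe set, higher in the knockout by a log2 of 0.91 (SE 0.426), a fold of 1.88, and it was higher within each replicate number. That order holds on the log2(signal + 21.7) scale over all 6 arrays, where the dimmer Tnni2 was close behind at -0.86. Tnni2 was ahead without knockout 2 (-1.10, against 0.87 for Myl1) and without knockout 3, where Myl1 was at 0.76, Atp2a1 without wild type 1 (0.88 against 0.44), and Tnni1 in replicates 2 and 3 alone (0.69 against 0.63). Over the 9 genes, each by its brightest probe set, 4 were higher and 5 lower in the knockout, with a median log2 difference of -0.08, against -0.01 over all 18193 genes with a probe set. Myl1 and Atp2a1 were higher in the knockout in all 3 same-numbered pairs, none was lower in all 3, and the other 7 were mixed. Over all genes 13.2% were higher and 14.9% lower in all 3 pairs. For Atp2a1 the sign within pairs depended on the numbering, since knockout 3 (56.4) lay below wild type 2 (60.0). No probe set of the 22519 tested had a limma adjusted p under 0.05 between the genotypes (0%), while 453 had an unadjusted p under 0.05 (2.01%). The brightest Akt2 probe set was itself not called, at a log2 of -2.69 (SE 0.249, limma adjusted p = 0.18). The lack of a call is therefore not a lack of difference. With replicate number 1 as a block 1 probe set, of no member, passed (0.00444%), and that of Akt2 did not (limma adjusted p = 0.0877).

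Myl1 encodes the fast skeletal essential light chains, which wrap the lever arm of myosin. Its probe set, 1452651_a_at, had signals of 4705, 6545 and 7553 in knockouts 1, 2 and 3 and of 1685, 4249 and 4835 in wild types 1, 2 and 3. The groups overlapped by 1 array, since knockout 1 lay below wild type 3, and wild type 1 was far below the rest. Means were 6268 ± 1440 (SD, n = 3) in the knockout and 3589 ± 1680 (SD, n = 3) in the wild type. The log2 difference was 1.47 between the number 1 arrays and 0.63 between those numbered 2 and 3, where both knockout arrays were above both wild type arrays. Without the wild type 1 array it was 0.44. A block leaves the difference unchanged by construction, and its SE was 0.206 with replicate number 1 as a block and 0.22 with the replicate number as a block, in place of 0.426.

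The essential light chains of the heart did not share this pattern. Myl3, the ventricular form, had 111516, 66829 and 74150 in knockouts 1, 2 and 3 and 192263, 54905 and 70041 in the wild types. Wild type 1 was the highest array for Myl3 and the lowest for Myl1. The log2 difference of Myl3 between genotypes was -0.14 (SE 0.484), with -0.79 between the number 1 arrays and 0.18 between those numbered 2 and 3. Myl4, the atrial and embryonic form, had 2224, 1604 and 803 in the knockouts against 2014, 376 and 1560, a log2 difference of 0.41 (SE 0.669), and here wild type 2 was the lowest array.

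Mylpf, the regulatory light chain of fast skeletal myosin, gave no steady difference between genotypes. Its signals were 264, 116 and 164.5 in the knockouts and 444, 97.1 and 142 in the wild types. The groups overlapped throughout, and in both genotypes replicate 1 was the highest array. The log2 difference was -0.10 (SE 0.536), with -0.71 between the number 1 arrays and 0.20 between those numbered 2 and 3. Myl2, its ventricular counterpart, showed the same order of signs, -1.01 and 0.25.

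Acta1, skeletal alpha-actin, was bright on every array and differed little between genotypes. It had 9462, 11234 and 19824 in knockouts 1, 2 and 3 and 13102, 12392 and 15660 in the wild types. The wild type values lay within the range of the knockout values, and replicate 3 was the highest array in both genotypes. Means were 13510 ± 5540 (SD, n = 3) and 13720 ± 1720 (SD, n = 3), a log2 difference of -0.09 (SE 0.302). The cardiac actin gene Actc1 had a log2 difference of -0.25 (SE 0.476), with signals of 113208, 62313 and 70503 against 189306, 55768 and 79447.

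Ckm, which regenerates ATP from phosphocreatine in the cytosol of muscle, varied least of the 9 genes, with 1.44-fold between its lowest and highest array. Its brightest probe set had 47116, 48283 and 55786 in the knockouts and 63584, 44098 and 53454 in the wild types, a log2 difference of -0.08 (SE 0.204). The second Ckm probe set, 1444643_at, went the other way: 385, 345 and 406 against 336, 263 and 304, a log2 difference of 0.32 (SE 0.179). All 3 knockout arrays were above all 3 wild type arrays in that probe set and not in the brightest one. The 2 probe sets differed in sign between the number 1 arrays, at -0.43 for the brightest and 0.19 for the second. Both were above 0 between those numbered 2 and 3, at 0.10 and 0.38. Of the creatine kinases of the comparison list, Ckmt2, the mitochondrial muscle form, had -0.05 (SE 0.283) and Ckb, the brain form, 0.04 (SE 0.207).

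The skeletal troponin genes were dim, and for Tnnt3 and the brightest Tnni2 probe set the difference lay between the number 1 arrays. Tnni2, the fast skeletal inhibitory subunit, had 30.8, 102 and 86.6 in knockouts 1, 2 and 3 and 291, 96.5 and 92.0 in the wild types by its brightest probe set. Both replicate 1 arrays were the extremes, the knockout the lowest and the wild type the highest of the 6. The log2 difference of -0.86 (SE 0.495) was -2.57 between the number 1 arrays and -0.00171 between those numbered 2 and 3. A second Tnni2 probe set, 1438609_x_at, had 92.8, 25.8 and 49.2 against 259.5, 13.7 and 40.7, and the third, 1438608_at, had 13.3, 9.3 and 7.5 against 87.5, 13.9 and 19.1. Their log2 differences were -0.23 (SE 0.774) and -0.77 (SE 0.45). Between the arrays numbered 2 and 3 they were 0.30 and -0.34, so the 3 probe sets did not share 1 pattern. In the third no knockout array reached the lowest wild type array, but knockout 1 and wild type 2 were less than 1 signal unit apart. Of the 12 member probe sets, this one and the second of Ckm had groups that did not overlap, 1 lower and 1 higher in the knockout, where 7.59% of all probe sets did not overlap. Nothing is read from that count, since the members were chosen with this contrast known.

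Tnnt3, the fast troponin that holds the complex to tropomyosin, had 13.8, 4.5 and 9.2 in the knockouts and 121, 7.6 and 4.8 in the wild types. Wild type 1 alone was high, and the other 5 arrays were between 4.5 and 13.8. The log2 difference of -0.65 (SE 0.651) was -2.01 between the number 1 arrays and 0.03 between those numbered 2 and 3. Tnnc2, the calcium-binding fast subunit, had 84.0, 33.7 and 8.6 against 151.5, 9.5 and 8.8, with the replicate 1 arrays the highest of each genotype and a log2 difference of 0.04 (SE 0.785). Tnni1, the slow skeletal and fetal cardiac inhibitory subunit, had 13.6, 54.8 and 6.5 against 24.7, 9.1 and 5.3 (log2 0.33, SE 0.437), with knockout 2 the highest array. The cardiac troponins were bright on every array, and their log2 differences were -0.04 (SE 0.356) for Tnni3, -0.11 (SE 0.435) for Tnnt2 and -0.13 (SE 0.405) for Tnnc1.

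Atp2a1, the calcium pump of the fast skeletal sarcoplasmic reticulum, was higher in the knockout within each replicate number, but the groups overlapped. It had 235, 96.7 and 56.4 in knockouts 1, 2 and 3 and 173, 60.0 and 42.9 in the wild types. In both genotypes replicate 1 was the highest array and replicate 3 the lowest. The log2 differences within pairs were 0.39, 0.54 and 0.27, with a mean of 0.40. The SE was 0.579 without a block and 0.18 with the replicate number as a block. That block and the pairs take numbers 2 and 3 as matched, which the arrays do not show. Over all tested probe sets, like numbers 2 and 3 deviated together at 0.45 and 0.39, and unlike ones at 0.44 and 0.36. Knockout 3 was below wild type 2, so the sign within pairs depends on the numbering. Atp2a2, the cardiac pump, had -0.16 (SE 0.434), with -0.85 between the number 1 arrays and 0.19 between those numbered 2 and 3.

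**Figure D2:**
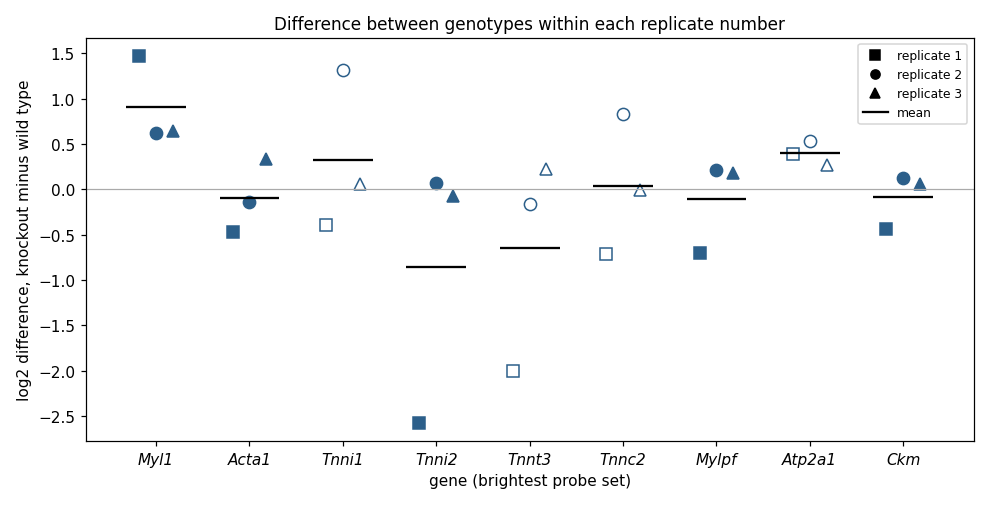
Log2 difference, knockout minus wild type, within each replicate number for the brightest probe set of each of the 9 genes. Squares, circles and triangles are replicates 1, 2 and 3, bars are their means, and open symbols mark genes below the limit for testing. Myl1 and Atp2a1 are above 0 in all 3 pairs, and the lowest points, Tnni2 at -2.57 and Tnnt3 at -2.01, belong to the replicate 1 pair.

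The contrast of the replicate 1 arrays with the other 4 had no part in choosing the members, and here the difference was tested, with genotype in the limma model. Myl1 in the replicate 1 arrays fell by 1.00 on the log2 scale (SE 0.218, limma adjusted p = 0.0216) and Mylpf was higher by 1.29 (SE 0.271, limma adjusted p = 0.0199). These were 2 of the 6 tested member probe sets, and 33.1% of all 22519 tested probe sets passed in this contrast, so the share called among the members was near that of all probe sets. Acta1 (-0.37, SE 0.277), the brightest probe sets of Tnni2 (0.14, SE 0.544) and Ckm (0.12, SE 0.18) and the second of Ckm (0.14, SE 0.142) did not pass, with limma adjusted p of 0.327, 0.851, 0.611 and 0.481. The untested Tnnc2, Atp2a1 and Tnnt3 had differences of 1.93, 1.42 and 1.34, and Tnni1 had 0.15. Of the 9 members 6 had their highest signal in a replicate 1 array, as did 62% of all genes and 74.8% of the genes below the limit for testing. The calls of Myl1 and Mylpf were lost when no filter on low signals was used (limma adjusted p = 0.0651 and 0.0592). Of the 12 member probe sets 2 were called without the filter, neither of them that of Myl1 or Mylpf.

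The cardiac counterparts that passed in that contrast went one way on the deposited scale. Of the 9 counterpart genes 7 were called higher in the replicate 1 arrays and none was called lower. Of all tested probe sets 20% were called higher and 13.2% lower. Calls in either direction were more frequent among brighter probe sets. They numbered 5537 of 11260 with the filter at the 75th percentile, which all 9 counterparts passed, against 7464 of 22519. The 9 include Ckmt2 and Ckb, the mitochondrial and brain creatine kinases, which are not cardiac forms of Ckm. Actc1 rose by a log2 of 1.14 (SE 0.233, limma adjusted p = 0.0187), Myl3 by 1.15 (SE 0.249, limma adjusted p = 0.0213) and Tnnt2 by 1.01 (SE 0.23, limma adjusted p = 0.0239), and Tnnc1 (0.90), Atp2a2 (0.97), Tnni3 (0.76) and Myl2 (1.10) also passed. Ckmt2 (0.55) and Ckb (-0.10) did not pass, with limma adjusted p of 0.0671 and 0.694. The rise depended on the scaling between arrays: with quantile normalization 0 of the 9 passed (differences from -0.17 to 0.22), and with median centring Ckb alone passed, as lower (-0.72). The median of all tested probe sets in this contrast was 0.10 on the deposited scale, -0.04 after quantile normalization and -0.52 after median centring, and the share of calls that were higher was 60.2%, 44.4% and 7.2%. Myl1 was lower under all 3 scalings (-0.85 after quantile normalization and -1.62 after median centring, limma adjusted p = 0.0383 and 0.00525). Mylpf was higher under all 3 (1.00 and 0.66), though not past the threshold after median centring (limma adjusted p = 0.0584).

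**Figure D3:**
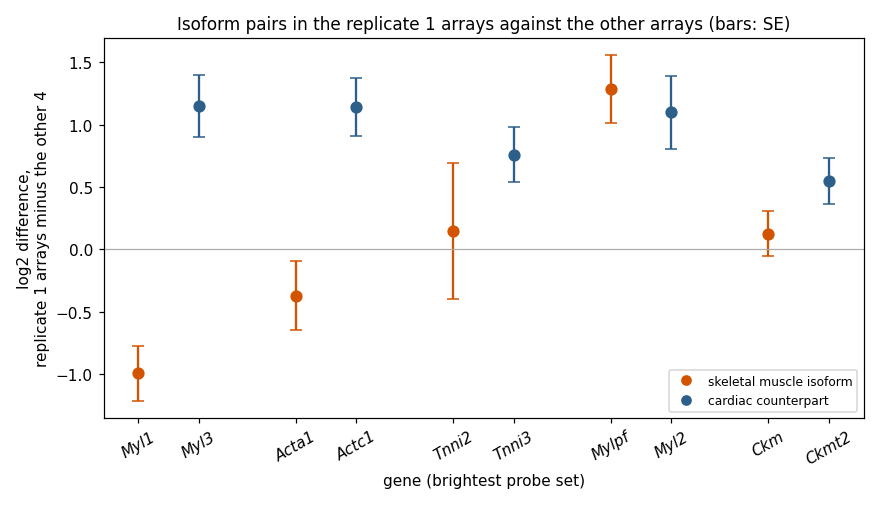
Log2 difference between the replicate 1 arrays and the other 4, from the limma model with genotype, on the deposited scale. The 5 tested skeletal muscle isoforms are orange, and a gene of the cardiac counterpart list for each is blue. Ckm is set beside Ckmt2, the mitochondrial form, which is not a cardiac form of Ckm. Bars are SE. Myl1 lies below 0 and Myl3 at 1.15, while Mylpf at 1.29 and Myl2 at 1.10 lie close together.

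A wider list of 30 further genes of skeletal muscle, mostly of fast fibres, was read beside the members. It held 29 genes on the array, 12 of them tested, and 0 passed between genotypes in either direction; 7 were higher and 5 lower in the knockout, with a median log2 difference of 0.16 against 0.01 over all 11075 tested genes. Over all 29 genes 14 were higher and 15 lower, with a median of -0.01. Defining genes of fast fibres were dim, below the limit for testing, and did not go one way: Myh4, the IIb myosin heavy chain, had 74.2, 29.0 and 33.7 in the knockouts and 253, 11.5 and 0.8 in the wild types, Myh1 (IIx) had 8.6, 3.7 and 40.8 against 129, 27.6 and 54.6, and Pvalb, parvalbumin, had 30.3, 94.1 and 70.9 against 44.4, 104 and 75.1. Wild type 1 was the highest array for Myh4 and Myh1 and not for Pvalb. Myh2, the IIa heavy chain, had 11.8, 10.1 and 120.4 against 82.5, 71.6 and 69.3, and was highest in knockout 3. Actn3, the alpha-actinin of fast fibres, had 27.3, 45.8 and 43.6 against 8.3, 13.4 and 20.3, with every knockout array above every wild type array. Those 5 were chosen after their values were seen, outside the rule for named genes. The summed signal of the 29 genes ranged from 87686 to 104840 in the knockout and from 80575 to 118471 in the wild type. Several of the 29, such as Eno3, Pgam2, Pygm and Trdn, are also made by heart muscle. In 24 of the 29 genes the highest array was a replicate 1 array. The share was 62% over all genes and 74.8% over genes below the limit for testing, where 17 of the 29 lay. Wild type 1 was the highest array for 12 of the 29 (41.4%), against 38.5% of all genes. The part of skeletal muscle tissue in the members' values was not tested.

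Casq1, skeletal calsequestrin, the calcium-binding protein inside the sarcoplasmic reticulum, had the largest difference between genotypes among the tested genes of the wider list. Its signals were 990, 680 and 694 in the knockouts and 603, 351 and 206 in the wild types, a log2 difference of 1.09 (SE 0.382). All knockout arrays were above all wild type arrays, with 0.70 between the number 1 arrays and 1.28 between those numbered 2 and 3. Cacna1s, the voltage sensor of skeletal excitation-contraction coupling, had 407, 318 and 228 against 210, 171 and 134 (log2 0.80, SE 0.266). Myot, a Z-disc protein, had 0.50 (SE 0.238), and Myoz1, the fast-fibre calsarcin of the Z-disc, had 0.67 (SE 0.36). These 4 genes had groups that did not overlap, with the knockout higher, and each had a limma adjusted p of 1. Among the 29 genes, tested or not, 6 had groups that did not overlap: these 4 and Actn3 higher, and Mybph lower (-0.74), against 7.59% of all probe sets and 7.3% of the tested ones. The list was chosen with results of these data known, so nothing is read from that count. Of the 4 brightest genes of the list, Eno3, muscle enolase, was at -0.06, Pgam2 at 0.02 and Pygm at -0.05, while Trdn, triadin, was at 0.39 (SE 0.362).

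**Figure D4:**
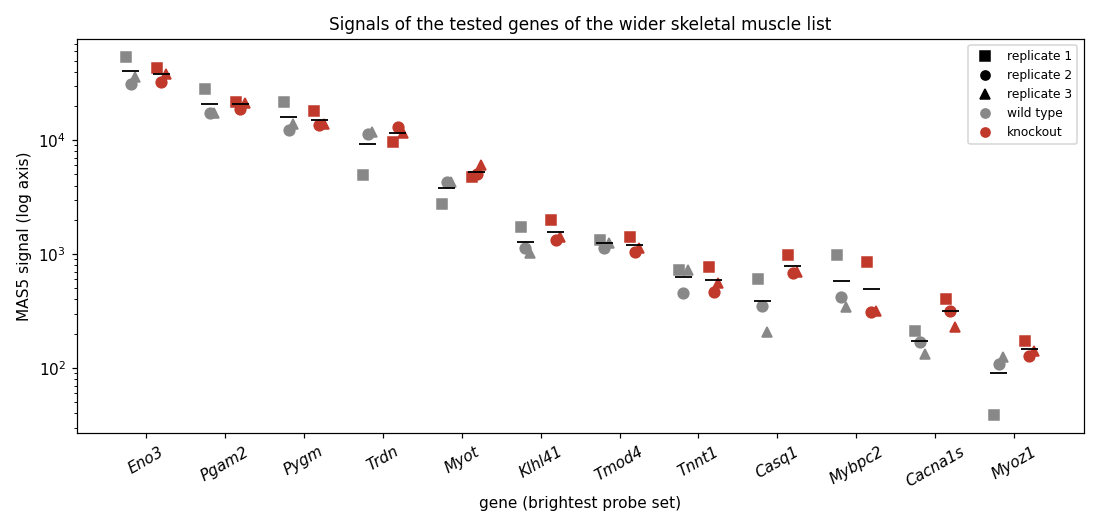
Signal on each array, on a log axis, of the 12 tested genes of the wider skeletal muscle list, with wild type in grey and knockout in red. Symbols are replicates and lines are means of 3 arrays. Casq1, Cacna1s, Myot and Myoz1 have all knockout arrays above all wild type arrays, and Mybpc2 is higher in the replicate 1 arrays of both genotypes.

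In the contrast of the replicate 1 arrays with the others, 3 of the 12 tested genes of the wider list were called higher and 1 lower, not far from the 20% and 13.2% of all tested probe sets. Mybpc2, fast myosin-binding protein C, was higher by a log2 of 1.35 (SE 0.134, limma adjusted p = 0.00713), as were Klhl41 (0.61) and Pygm (0.56), while Trdn was lower (-0.78, limma adjusted p = 0.0411). Mybpc2 passed under all 3 scalings, with 1.32 after quantile normalization and 0.73 after median centring. The directions of Klhl41 and Pygm turned after median centring, to -0.01 and -0.07. Trdn was lower under all 3 scalings, but not past the threshold after quantile normalization (-0.70, limma adjusted p = 0.054). Median centring called 1 gene higher and 2 lower, the second of these being Myot (-1.04, limma adjusted p = 0.00782), and quantile normalization called 3 higher and 0 lower.

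The other marker lists showed no call between genotypes. Among 12 myogenic factor and synapse genes 2 were tested, Dok7 (0.18) and Chrnb1 (-0.03), and the myogenic factors Myod1, Myog, Myf5 and Myf6 were below the limit. Atrial and fetal myocyte genes had a median of 0.13 over 13 tested genes, 8 higher and 5 lower. The bright Ankrd1, Actn2 and Nppa were at -0.15, -0.02 and 0.13. Nppb, the B-type natriuretic peptide, was at -0.49 (SE 0.207) with groups that did not overlap. Myh7, the slow and fetal myosin heavy chain, was at 0.66 (SE 0.406) and Myl7, the atrial regulatory light chain, at 1.10 (SE 0.934). Wild type 2, at 96.5, was far below the other arrays for Myl7. The differences of Myl7 in replicates 1, 2 and 3 were 0.75, 3.51 and -0.95. Cardiac counterparts had a median of -0.13, fibroblast markers 0.10, smooth muscle markers 0.14, and the 1 tested adipocyte marker, Fabp4, 0.04. Endothelial markers had -0.19 with 6 of 6 lower, where 46.7% of all tested genes were lower. Pecam1, Tek and Vwf, 3 of the 6, had groups that did not overlap, as did 7.3% of all tested probe sets. The groups of Kdr (-0.20), Cdh5 (-0.12) and Tie1 (-0.12) overlapped. These lists were chosen with results of these data known, so nothing is read from those counts. The median of the cardiac counterparts was 0.16 in replicates 2 and 3 alone.

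The members did not vary as one group over the arrays. Pearson correlations of log2 signal between the brightest probe sets, over 6 arrays and given as a description, ran from -0.907 between Myl1 and Tnnt3 to 0.923 between Tnnc2 and Atp2a1. Tnnt3, Tnnc2 and Mylpf were alike (0.804 to 0.875), and Acta1 correlated with Myl1 at 0.234. These points share the arrays and the difference between the replicate 1 arrays and the rest. Tnnt3, Tnnc2 and Atp2a1 were below the limit for testing, and Tnnt3 was high in wild type 1 alone. By the same measure, out of 11070 other tested genes, those most like Myl1 were G3bp2 (0.993), Fbxo44 (0.992) and Btbd10 (0.991), all lowest in wild type 1. Those most like Mylpf were Fbxl7 (1.00), Fxr1 (0.998) and Eno3 (0.997), all highest in wild type 1. Acta1 was most like Pabpc4 (0.993), Mrrf (0.960) and Serping1 (0.959), Tnni2 most like Mpp7 (0.995), Ap1b1 (0.993) and Adgrd1 (0.993), and Ckm most like Taf11 (0.982), Orly (0.981) and Atp5o (0.979). Each of these correlations is a description of 6 arrays only.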

How the data were processed

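Left ventricular RNA of 3 knockout and 3 wild type samples was measured on 1 Affymetrix array each, from 12 ug of total RNA labelled with biotin, per the labels' protocols. The deposited values are intensities, 1 linear signal per probe set, computed with MAS5 per the submitters' processing notes; no version or setting of it is given in these sources. The mean without the 2% of values at each end was 500 on every array, so each array had been scaled by 1 factor, and that scaling was kept. Such a scaling does not remove differences in the shape of the distributions.

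The 64 controls were not tested. The scale is log2(signal + 21.7), the added value being the 20th percentile of all values, so log2 differences are on that scale and understate changes of dim genes. The 22519 probe sets at or above the median of mean log2 values were fitted with limma 3.58.1 in R 4.3.3 (lmFit, eBayes), with Benjamini-Hochberg adjustment over all of them and a threshold of 0.05; SE are limma's moderated ones. For untested members the SE comes from the same fit without the filter. The members and gene lists were chosen with earlier results of these data known. Named by rule were every member and cardiac counterpart, the 3 genes most correlated with each tested member, and Akt2. Of the wider skeletal muscle list the rule took up to 4 brightest and up to 4 of lowest unadjusted p. For the remaining lists this rule was not kept in full, and genes there were named with their values known. Of the probe sets 34945 had 1 gene symbol in the platform annotation, 932 had several and 9160 are unnamed here; a gene is represented by its brightest probe set. The test was checked on simulated arrays with known changes. Same-numbered arrays deviated together from their genotype means (correlations of 0.61, 0.45 and 0.39), and unlike numbers 2 and 3 gave 0.44 and 0.36; what the number means is not in the labels. Precision is limited by the number of arrays. Alternatives were other pseudocounts (16 and 100), filters, scalings, variance estimates, blocks and subsets of arrays; reading the contrast of replicate 1 for the members under them was added after seeing the data.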

Additional observations from a re-analysis of the deposited data

How the results depend on the processing

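The number of probe sets called between genotypes was 0 under 15 of 16 alternatives, the fit with the replicate block and those leaving out each array included, and 1 with replicate number 1 as a block; no cardiac counterpart was called under any of the 16. Member probe sets whose genotypes did not overlap numbered 2, between 2 and 3 when an array was left out, and 1 after median centring. The difference of Myl1 stayed above 0 under all 16, from 0.44 without the wild type 1 array to 1.19. That of the brightest Tnni2 probe set stayed below 0 but came to -0.00171 in replicates 2 and 3 alone. The sign of Acta1 turned under 5, Tnnc2 under 4, Mylpf and Ckm under 3 each, Tnnt3 under 2, and Tnni1 and Atp2a1 under 1 each, all small against their spread between arrays. Between the replicate 1 arrays and the others 7464 probe sets were called, 4272 without the filter and 11288 after median centring. Member probe sets called there numbered 2 of 6 tested. They numbered 1 of 3 with the filter at the 75th percentile, 2 of 12 without the filter and 3 of 7 with pseudocount 100. After quantile normalization and after median centring they numbered 4 each. Ckm turned from 0.12 to -0.41 and -0.50 under these scalings, past the threshold in both (limma adjusted p = 0.0439 and 0.046). The causes were not tested. Dim signals limit Tnni1, Tnnt3 and Tnnc2 most.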
